A study of Mus musculus with 4 samples.

Results

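The genes described here are 9 integrin subunit genes used by leukocytes, namely Itgam, Itgax, Itgal, Itgad and Itgb2, which form the beta-2 family, Itga4, Itgb1 and Itgb7, which form the alpha-4 receptors, and Itgav. Accessible DNA was mapped by ATAC-seq, a method that inserts sequencing adapters into open chromatin with a transposase, in mouse bone marrow-derived macrophages. Knockout (KO) macrophages came from mice carrying a floxed Ezh2 gene on both alleles and Cre recombinase at the Lyz2 locus (Ezh2 fl/fl; LysM-Cre+/-), and wild-type (WT) macrophages came from littermate controls, whose Ezh2 and Cre alleles are not stated. Ezh2 is the methyltransferase of Polycomb repressive complex 2, which places the repressive mark H3K27me3, and LysM-Cre acts in cells of the myeloid lineage. Marrow of both genotypes was grown for 7 to 10 days with L929 cell medium, and every library analysed here was then exposed for 24 hours to medium conditioned by the mouse liver cancer line Hepa1-6. There were 2 libraries per genotype. Whether replicates were separate animals or separate cultures is not stated. The SDs therefore measure only the spread between these libraries, which may be technical. The p-values compare only these libraries and do not extend to animals. Peak lists hold no transcript levels, so the loss of Ezh2 itself was not checked here. The age of the mice is not stated either.

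Peaks called in the 4 libraries were merged into 91858 regions wherever they shared at least 1 bp. A region was given to the nearest of 21900 protein-coding genes when it lay inside that gene or within 50 kb of it. The 9 integrin genes held 70 of these regions, and none of the 70 was shared with another gene. The libraries held 67055 and 71111 peaks in KO and 69210 and 72887 in WT, covering 28.3 ± 2.26 Mb in KO and 28.8 ± 1.49 Mb in WT (SD, n = 2 each). The lists hold peaks and not reads, so sequencing depth is unknown, and a missing peak does not show closed chromatin. All 10 macrophage marker genes checked, among them Spi1, Csf1r and Adgre1, had a region within 1 kb of a gene end in all 4 libraries. The same held for 2 of 7 neutrophil, 2 of 5 dendritic cell, 0 of 7 T and NK cell, 0 of 5 B cell, 1 of 5 hepatocyte and 1 of 5 fibroblast markers. The share of all protein-coding genes that meet this rule was not computed, so these marker counts have no background beside them.

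Integrins are receptors made of an alpha and a beta chain that tie cells to matrix and to other cells. The beta-2 chain pairs with the alpha chains encoded by Itgal (CD11a), Itgam (CD11b), Itgax (CD11c) and Itgad (CD11d), and these receptors bind ICAMs, complement fragments and fibrinogen during adhesion, migration and phagocytosis. Alpha-4 pairs with beta-1 to bind VCAM-1 and fibronectin, or with beta-7 to bind the gut addressin MAdCAM-1. Alpha-V, encoded by Itgav, binds matrix proteins that carry an RGD motif and takes part in the uptake of dying cells. Itgam is a standard marker of macrophages and other myeloid cells, and the alpha-4 and alpha-V genes are also used outside the blood lineage.

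The promoter windows of 6 genes (Itgam, Itgax, Itga4, Itgb1, Itgb7 and Itgav) were available from RefSeq on GRCm38.p6, the assembly behind mm10, each running from 250 bases before to 50 after the gene start. The 4 windows printed here show the contrast between starts wholly under a peak in every library (Itgb1, Itgav) and starts that were partly covered (Itgam) or covered in a single library (Itgb7). Capitals mark the letters GAGGAA, the core bound by the myeloid factor PU.1, and GGGCGG, the GC box of SP and KLF factors, on either strand (TTCCTC and CCGCCC when read on the opposite strand). They are printed 5′ to 3′ in the direction of the gene.
Itgam, chr7:128062390-128062689, plus strand: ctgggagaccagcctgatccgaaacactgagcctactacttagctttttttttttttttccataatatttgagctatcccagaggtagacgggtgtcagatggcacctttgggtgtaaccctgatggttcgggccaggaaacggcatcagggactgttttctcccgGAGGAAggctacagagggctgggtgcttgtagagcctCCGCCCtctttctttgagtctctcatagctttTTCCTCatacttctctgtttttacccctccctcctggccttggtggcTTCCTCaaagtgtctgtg
Itgb7, chr15:102231886-102232185, minus strand: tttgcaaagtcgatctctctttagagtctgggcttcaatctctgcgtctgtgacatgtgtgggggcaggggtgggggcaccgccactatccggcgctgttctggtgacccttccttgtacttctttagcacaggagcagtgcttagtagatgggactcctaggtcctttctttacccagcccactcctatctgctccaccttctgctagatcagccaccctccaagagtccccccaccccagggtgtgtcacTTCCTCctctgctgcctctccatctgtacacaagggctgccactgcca
Itgb1, chr8:128685404-128685703, plus strand: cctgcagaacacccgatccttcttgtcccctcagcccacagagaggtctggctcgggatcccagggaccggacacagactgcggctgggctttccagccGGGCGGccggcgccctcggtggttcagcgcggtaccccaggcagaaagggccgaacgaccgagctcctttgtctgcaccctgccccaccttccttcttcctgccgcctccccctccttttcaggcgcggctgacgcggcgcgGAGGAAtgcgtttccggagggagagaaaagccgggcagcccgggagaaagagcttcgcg
Itgav, chr2:83724147-83724446, plus strand: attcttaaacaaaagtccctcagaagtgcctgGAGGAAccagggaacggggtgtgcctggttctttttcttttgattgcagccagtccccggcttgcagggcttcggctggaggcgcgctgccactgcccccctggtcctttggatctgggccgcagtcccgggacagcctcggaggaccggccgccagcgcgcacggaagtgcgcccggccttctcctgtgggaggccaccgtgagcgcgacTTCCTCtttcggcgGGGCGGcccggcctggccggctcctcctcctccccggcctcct

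The Itga4, Itgb1 and Itgav windows lay wholly under a peak in all 4 libraries, at 300 of 300 bp. The Itgam window was under a peak for 129 and 127 bp in KO and for 127 and 217 bp in WT. At Itgax the peaks covered 273 and 159 bp of the window in KO, against 0 and 79 bp in WT, so the KO libraries covered more of it without overlap. How many promoters separate in this way was not counted, and by rank the genotypes overlapped at the Itgax start region. That overlap came from WT replicate 1, whose peak in the region lay outside the window. The Itgb7 window had no peak in either KO library, and in WT it had 258 bp in replicate 1 and 0 in replicate 2. In total, 4 of the 6 windows touched a peak in all 4 libraries, against 49.6% of the 17492 promoters of protein-coding genes looked up in the same way. The windows also differed in base composition. Itgb1 and Itgav held 27 and 24 CpG pairs at observed over expected ratios of 0.798 and 0.708, whereas Itgam held 6, Itgax 5 and Itgb7 5, at ratios of 0.316, 0.275 and 0.216, beside a median ratio of 0.576 over all promoters. Itga4 had a low ratio of 0.322 with 10 CpG pairs and was nevertheless fully under a peak. GAGGAA occurred 3 times at Itgam, 2 times at Itgav, once at Itgb1 and Itgb7 and not at Itgax or Itga4. At least 1 match was found in 27.5% of all promoters, and 3 or more in 0.589%. Every GAGGAA holds the shorter ETS core GGAA, which 95.7% of promoters contain and all 6 windows held. GGGCGG was present at Itgam, Itga4, Itgb1 and Itgav and in 46.3% of promoters. At Itgax the AP-1 letters TGANTCA (7.08% of promoters), the RUNX letters TGTGGT (15.1%), the C/EBP letters TTGCNNA (35.7%) and the CCAAT box (39.0%) were each found once. The RUNX letters were also found once at Itga4, and the C/EBP letters at Itgb7 in 2 overlapping matches on opposite strands. The TATA letters TATAAA, in 13.3% of promoters, were found in none of the 6 windows. These are matches of letters in fixed windows and were not tested as binding sites.

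Most integrin regions were called in every library. Of the 70 regions, 49 (70.0%) were called in all 4 libraries, where the share over all merged regions was 57.8%. That background also holds regions with no protein-coding gene within 50 kb, as 80467 of the 91858 were assigned to a gene. Without the weakest 25% of each list the share was not above the background, at 34 of 54 regions against 64.3%. A further 9 were called in 3 libraries, 9 in a single library (12.9%, against 23.0% of all regions), and 1 in 1 KO and 1 WT library. No region was called in both KO libraries and neither WT library (the share over all merged regions was 1.47%), and 2 regions (2.86%) were called in both WT libraries and neither KO library, against 2.03% of all regions. The KO-only and WT-only shares are close to the background. An exact permutation test of 2 KO against 2 WT libraries cannot give a two-sided p below 0.333, and no other test was run on single regions. Per library, 59 and 56 of the 70 regions (84.3% and 80.0%) were called in KO and 60 and 63 (85.7% and 90.0%) in WT. Of all merged regions, the same libraries called 72.0% and 76.9% in KO and 74.5% and 78.7% in WT.

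**Figure D1:**
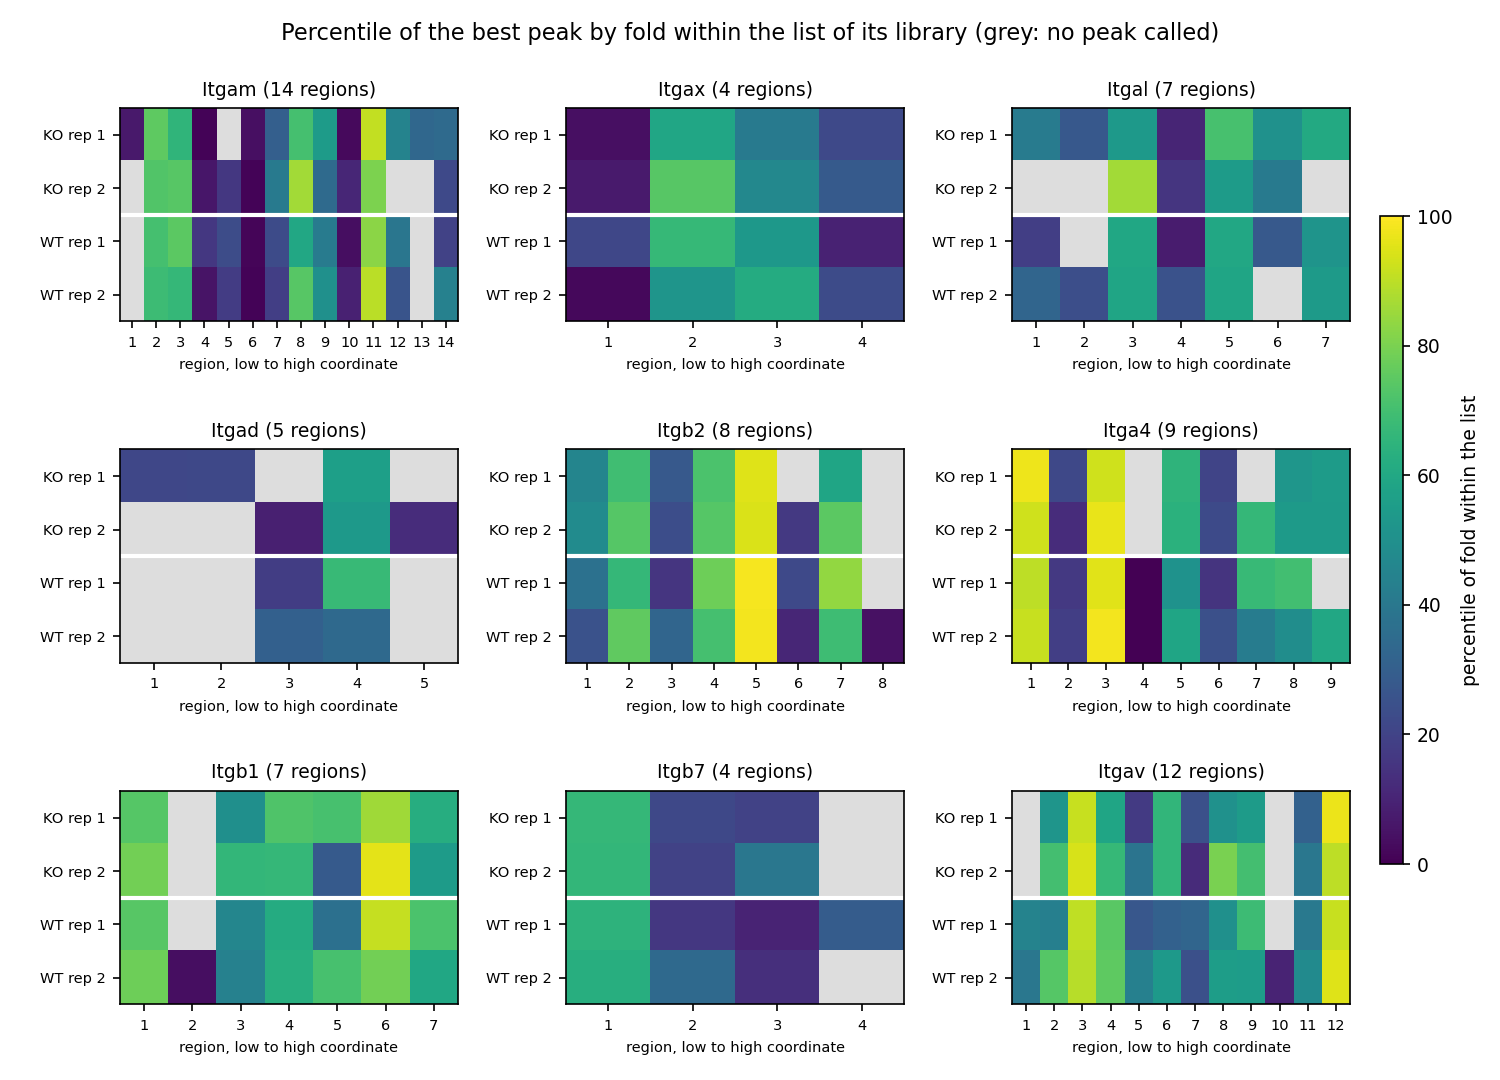
Each panel is 1 gene, each column 1 merged region from low to high coordinate, and each row 1 library, KO above WT; colour is the percentile of the best peak by fold within the list of its library and grey means no peak. Columns are mostly filled in all 4 rows, and Itgad has a single column filled throughout.

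Both WT-only regions lay outside their genes. At Itga4, the alpha-4 gene, a region of 422 bp (chromosome 2, 79253437 to 79253858) lay 1568 bp before the gene start. Its deposited fold values, the enrichment of a peak over the local background of the peak caller, were 2.16 and 2.06 in WT, at percentiles 0.0983 and 0.0453 of all peaks in those lists, close to the weakest peaks called. At Itgav a region of 132 bp (chromosome 2, 83698634 to 83698765) lay 23538 bp from the gene with fold values of 4.32 and 3.96, which stood at percentiles 44.7 and 39.7 of their lists. The 9 regions called in a single library were 4 from KO replicate 1, 1 from KO replicate 2, 1 from WT replicate 1 and 3 from WT replicate 2. They included 3 of the 5 Itgad regions. Of the 9 regions called in 3 libraries, KO replicate 1 lacked 4, KO replicate 2 lacked 3, and each WT library lacked 1.

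The 5 beta-2 family genes differed widely among themselves. Itgam (chromosome 7, 128062640 to 128118491) had 14 regions, 10 of them shared by all 4 libraries, which is more shared regions than 96.6% of protein-coding genes had. Its neighbour Itgax (128129526 to 128150657), 11034 bp farther along, had 4 regions, all of them called in every library. Itgad (128173933 to 128205504), another 23275 bp on, had 5 regions but only 1 called in all 4. Neither end of Itgad had a region within 1 kb, and its shared region of 868 bp (128187635 to 128188502) lay 13702 bp inside the gene. Itgad had the fewest shared regions of the 9 genes. Itgal (127296139 to 127335137), the LFA-1 alpha chain, had 7 regions with 3 shared, and Itgb2 (chromosome 10, 77530329 to 77565708), the common beta-2 chain, had 8 with 6 shared.

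**Figure D2:**
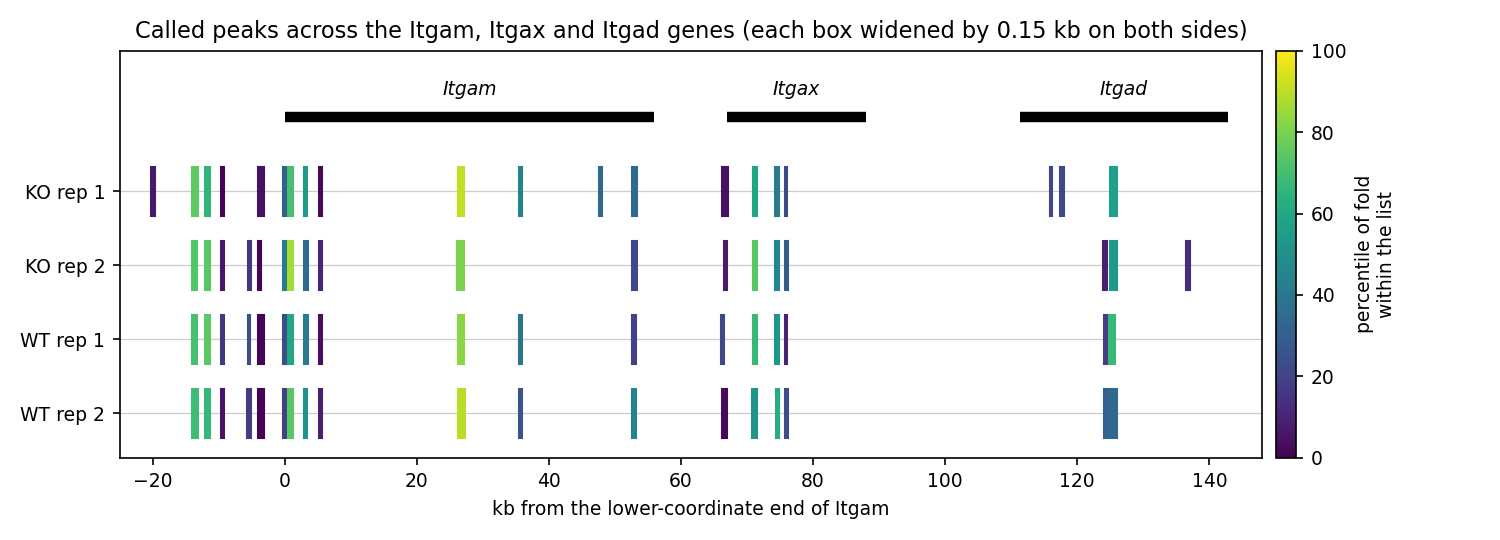
Called peaks of each library along Itgam, Itgax and Itgad, in kb from the lower-coordinate end of Itgam (black bars are genes; colour is the percentile of fold within the list of the library). Peaks crowd around the start of Itgam and along the first part of Itgax, and recur in all 4 libraries at 1 place in Itgad.

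To compare libraries, the 53062 regions called in all 4 were ranked by fold in each library. All rank lists thus had equal length, and a percentile of 100 is the strongest. The strongest region of a gene is named here by the mean of its percentiles over the 4 libraries. For Itgam it did not lie over the gene start but 26279 bp inside the gene (128088919 to 128089696, 778 bp). The Itgam intragenic region ranked at 88.5 and 73.8 in KO and at 77.7 and 85.8 in WT, and the groups overlapped. The region over the gene start (128062473 to 128062771, 299 bp) was much weaker, at percentiles 18.3 and 26.1 in KO and 11.6 and 6.84 in WT. Both KO libraries ranked it higher than both WT libraries. The next region, 589 bp from the start, ranked at 63.1 and 81.3 in KO and at 49.0 and 64.5 in WT, with overlap. In KO replicate 2 this region ranked above the intragenic one. Upstream of the gene, the region 13267 bp away ranked at 68.9 and 63.9 in KO, against 62.1 and 57.3 in WT, without overlap.

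At Itgax, which encodes CD11c, the start region (128128893 to 128129572, 680 bp) was among the weakest of the shared regions. It ranked at 2.001 and 2.55 in KO and 10.4 and 1.15 in WT. The 10.4 of WT replicate 1 came from a peak 66.253 to 66.386 kb from the lower-coordinate end of Itgam. On that scale Itgax starts at 66.886 kb, and the KO replicate 2 peak ran from 66.622 to 66.818 kb. These peaks shared no base and were joined by longer peaks of KO replicate 1 and WT replicate 2. The overlap of genotypes therefore does not compare signal at the start itself. The strongest Itgax region lay 4008 bp into the gene (128133558 to 128133993) at 49.2 and 65.5 in KO and 57.6 and 37.1 in WT, with overlap. The third Itgax region (128137082 to 128137374, 293 bp) ranked at 29.0 and 31.998 in KO, below the 41.2 and 48.5 of WT. It was also wider in KO, with peaks of 288 and 260 bp against 241 and 234 bp in WT. The fourth ranked at 11.6 and 13.95 in KO, above the 3.76 and 9.51 of WT, so neighbouring regions of 1 gene went in opposite directions.

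The strands of Itgal, Itgad and Itgb2 were not read from the files, so the region at the lower-coordinate end stands for the start of Itgal and of Itgb2. At Itgal this region (127296130 to 127296532, 403 bp) was weak, at 4.39 and 5.74 in KO and 3.05 and 11.1 in WT. The strongest Itgal region lay outside the gene, 5542 bp away (127290121 to 127290597), and stood at 42.6 and 81.7 in KO and 48.5 and 45.2 in WT, so the KO libraries lay on either side of WT. The region at the lower end of Itgb2 (77530076 to 77532137) was the widest of all integrin regions at 2062 bp. It was broken into 3 and 2 peaks totalling 872 and 1416 bp in KO, and into 2 and 1 peaks totalling 1349 and 2035 bp in WT. Its best peak ranked at 33.7 and 33.6 in KO, above the 24.1 and 11.2 of WT. These ranks take the highest fold among unlike numbers of peaks per library. The part that this splitting plays in the contrast was not tested. By the mean percentile over the 4 libraries, the strongest shared region of the whole set lay inside Itgb2 (77550731 to 77551448, 718 bp). It ranked at 94.0 and 92.6 in KO and 98.2 and 97.3 in WT. Both KO libraries stood below both WT libraries at this region, with a difference of -4.44 points between the group means. In both KO libraries and in WT replicate 2 another integrin region ranked above it. An Itga4 region, for example, stood at 95.7 in KO replicate 2 and 97.4 in WT replicate 2.

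Among the alpha-4 receptor genes, Itga4 (chromosome 2, 79255426 to 79333114) had 9 regions with 6 shared. Itgb1 (chromosome 8, 128685654 to 128733579), whose product is the most widely used beta chain, had 7 with 6 shared, and Itgb7 (chromosome 15, 102215994 to 102233405) had 4 with 3 shared. The start region of Itga4 (79254639 to 79255818, 1180 bp) ranked at 56.2 and 52.5 in KO, above the 38.4 and 44.9 of WT. Its peaks measured 1132 and 1146 bp in KO and 1155 and 1080 bp in WT, with overlap. The strongest Itga4 region lay 26596 bp before the gene (79227635 to 79228830) and ranked at 91.0 and 95.7 in KO and 94.1 and 97.4 in WT, with overlap. The most distant one, 48663 bp away, ranked at 96.7 and 90.1 in KO, above the 87.3 and 88.4 of WT.

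The start region of Itgb1 (128685333 to 128686585, 1253 bp) ranked at 65.2 and 55.7 in KO, above the 51.1 and 50.03 of WT, while its peaks were narrower in KO, at 1068 and 1100 bp against 1181 and 1225 bp in WT. A region 4484 bp before Itgb1 (128679913 to 128681170) ranked at 38.2 and 55.4 in KO, above the 32.9 and 27.8 of WT. The strongest Itgb1 region, 23636 bp into the gene (128709290 to 128709534), stood at 82.1 and 94.8 in KO and 88.6 and 70.7 in WT, with overlap. For Itgb7 the nearest shared region lay 556 bp inside the gene from its start (102230798 to 102231379) and ranked at 9.87 and 24.3 in KO, above the 3.86 and 4.21 of WT. The strongest Itgb7 region (102224602 to 102224836) ranked at 57.99 and 55.5 in KO and 54.5 and 49.8 in WT, again without overlap.

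Itgav (chromosome 2, 83722303 to 83806917) had 12 regions, 10 of them shared, and the only start region that ranked lower in both KO libraries. That region (83723916 to 83725123, 1208 bp) stood at 48.7 and 56.3 in KO, below the 67.0 and 66.03 of WT, with peaks of 1116 and 1159 bp in KO and 1108 and 760 bp in WT. A region 5067 bp into the gene (83729464 to 83729737) had the widest gap of all 49 shared regions, at 57.2 and 55.0 in KO and 18.2 and 39.6 in WT, a difference of 27.2 points between means. Its peaks were narrower in KO, at 173 and 184 bp against 274 and 185 bp in WT. The strongest Itgav region lay 46998 bp into the gene (83771395 to 83771686) at 96.2 and 86.7 in KO and 88.9 and 93.2 in WT, with overlap.

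**Figure D3:**
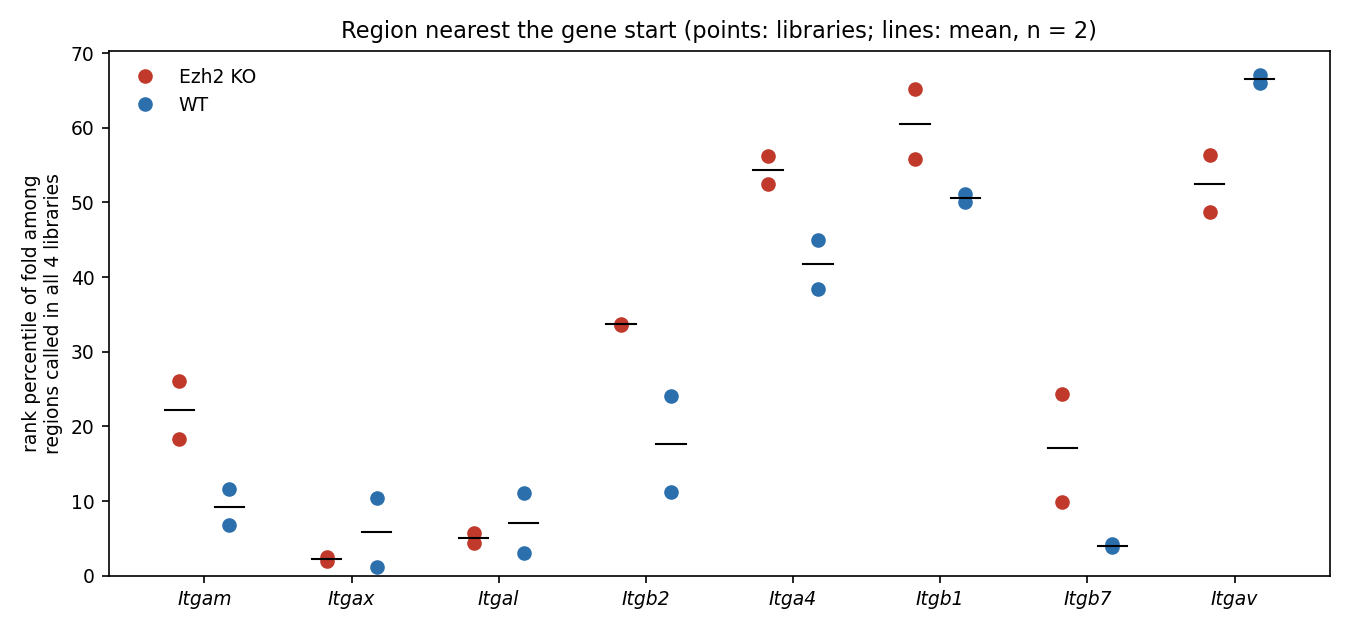
Rank percentile, among the 53062 regions called in all 4 libraries, of the shared region nearest the start of each gene in KO (left) and WT (right); points are libraries and lines are means of 2. Itgam, Itgb2, Itga4, Itgb1 and Itgb7 have both KO points above both WT points, Itgav has the reverse, and Itgax and Itgal overlap. The higher WT point of Itgax, at 10.4, is a peak lying before the promoter window.

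Of the 8 genes with a shared start region, 5 had both KO libraries above both WT libraries, 1 had both below, and 2 overlapped. The overlap at Itgax rested on WT replicate 1, whose peak in that region lay before the promoter window. It is still counted as an overlap. Among the 5 higher in KO, the Itgb2 region held 3 and 2 peaks in KO and 2 and 1 in WT. Where its best peak lay in each library was not compared. Over the 8647 shared regions at the RefSeq promoter start of any protein-coding gene, 22.2% ranked higher in both KO libraries and 13.8% ranked lower. The starts of Itgal and Itgb2 among the 8 are lower-coordinate ends instead, so for them the rule differs from that of the background. No test was run on these 8 regions, so this count is a description, and the tilt toward higher KO ranks is also seen in the background.

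Across all 49 shared integrin regions, 12 (24.5%) ranked higher in both KO libraries than in both WT libraries, against 18.7% of all shared regions. Another 4 (8.16%) ranked lower in both, against 16.9%, and 33 overlapped. With the added condition that group means stood at least 10 points apart, 6 were higher and 2 lower, where 5824 of the 53062 shared regions (11%) were higher and 5668 (10.7%) lower under the same conditions. The median difference, KO minus WT, was 1.13 points over the integrin regions and 0.208 over all shared regions, and single regions ran from -14.4 (the third region of Itgax) to 27.2 (Itgav). The mean percentile over the 49 regions was 44.5 ± 0.981 in KO and 41.9 ± 0.242 in WT (SD, n = 2 each). Replicates of single regions could lie far apart: the fifth region of Itgb1, chosen after its values were seen, stood at 63.4 and 14.1 in KO and 23.5 and 60.4 in WT.

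**Figure D4:**
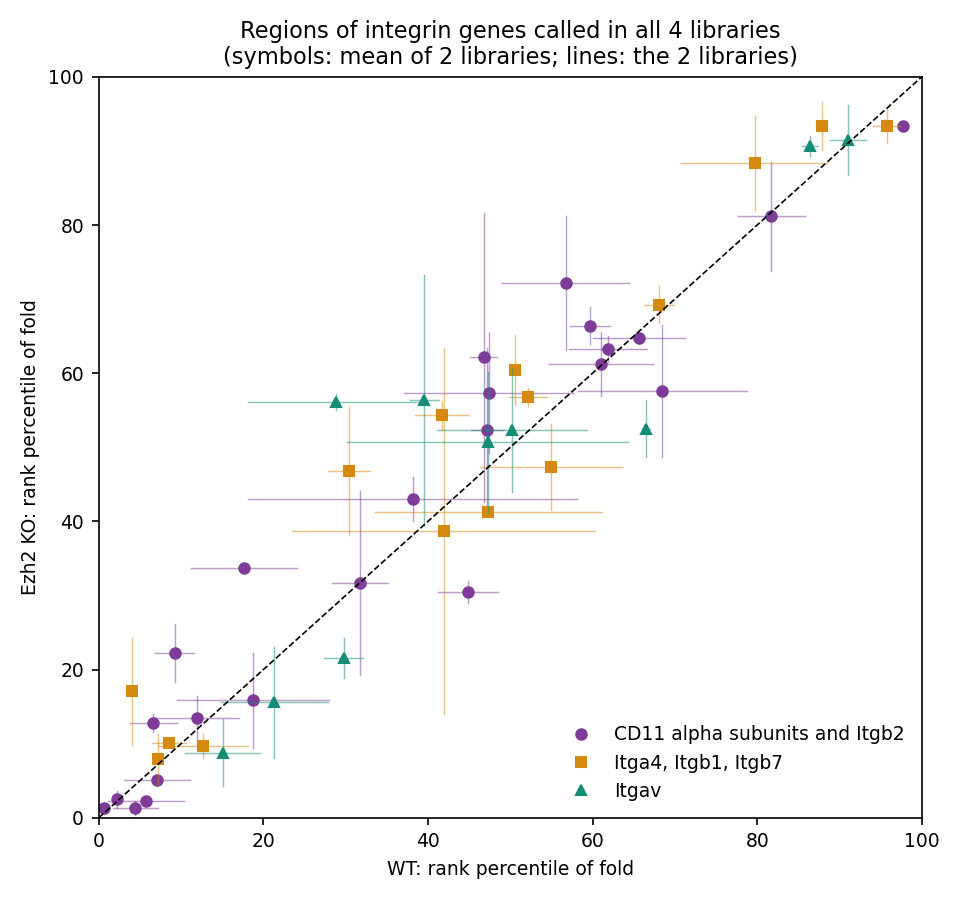
Mean rank percentile of fold in KO (vertical) and WT (horizontal) for the 49 regions called in all 4 libraries, with lines joining the values of the 2 libraries on each axis and a dashed line of equality. Points follow the line of equality from the weakest to the strongest regions, and the farthest above it is the Itgav region at 56.1 in KO and 28.9 in WT.

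Peaks were narrower in both KO libraries at 10 of the 49 shared regions (20.4%, against 16.9% of all shared regions) and wider in both at 4 (8.16%, against 16.2%). Of the 6 integrin regions whose libraries separated by genotype in both rank and width, 5 went in opposite directions: the start regions of Itgb1 and Itgav, the third Itgax region, and 2 other Itgav regions. Over the series, 69.9% of the 7075 shared regions that separated in both measures did so in opposite directions. The fold of a broad peak is an average over its length, so the measures are not independent.

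The genes fell into a high and a low set by the length of sequence under peaks, summed over all regions of a gene. In order of the mean over the 4 libraries, Itgam had 4017 bp, Itgb1 3962, Itgb2 3899, Itga4 3681 and Itgav 3593, and the ranges over libraries of neighbours in this order overlapped. They were followed after a wide gap by Itgal at 1522 bp, Itgad at 1132, Itgax at 1081 and Itgb7 at 947, and ranges of neighbours again overlapped among these 4. The lowest library value of the first 5 genes was 2917 bp (Itgb2) and the highest of the other 4 was 1876 bp (Itgal). The 5 leading genes had more sequence under peaks than 93.0% to 94.5% of protein-coding genes, and the 4 others more than 53.9% to 72.1%. The summed length also depends on gene length and on how many regions within 50 kb lay nearer another gene. Such regions were 13 of 17 at Itgb7, 9 of 13 at Itgax, 9 of 14 at Itgad and 9 of 16 at Itgal. They were 10 of 18 at Itgb2, 6 of 20 at Itgam, 4 of 13 at Itga4, 3 of 15 at Itgav and 0 of 7 at Itgb1. Their part in the split was not tested. Divided by gene length in kb, with regions outside the gene still counted, Itgb2 had the most, at 110.2 bp, and Itgad the least, at 35.9 bp. No Itgad region lay outside its gene, whereas 4 of 9 Itga4 regions and 3 of 7 Itgal regions did. This order therefore need not hold for sequence inside the genes.

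Between genotypes, Itga4 had 3366 and 3284 bp in KO, against 3994 and 4079 bp in WT. Both KO libraries lay below both WT libraries, with a difference of -712 bp between means, and the WT lengths included 422 and 385 bp of the WT-only region. Itgad had 1138 and 1515 bp in KO, against 898 and 977 bp in WT. Here both KO libraries lay above both WT libraries, and the KO lengths held 124 and 184 bp in regions called only in KO replicate 1 and 447 bp in a region called only in KO replicate 2. The other 7 genes overlapped. Among all genes with a region, 16.5% were lower in both KO libraries and 14.2% higher. The exact two-sided permutation test over libraries gave p = 0.333 for Itga4 and for Itgad, which is the smallest it can give. Summed over the 9 genes, peaks covered 23222 ± 67.9 bp in KO and 24444 ± 1204 bp in WT (SD, n = 2 each), a ratio of 0.950 beside 0.983 for all peaks. This contrast depends on single libraries: without KO replicate 2 the ratios were 0.952 for the integrin genes and 0.928 for all peaks, so its direction turned. Without WT replicate 2 they were 0.984 and 1.02. By mean rank of their shared regions, Itgam, Itgal, Itgb1 and Itgb7 were higher in both KO libraries and none was lower, where 18.5% and 16.8% of all genes with a shared region were. For Itgam these means were 36.6 and 34.6 in KO and 31.5 and 33.7 in WT, and for Itgal 36.8 and 42.9 in KO and 33.6 and 33.8 in WT (exact permutation p = 0.333 for each of the 4 genes). No single shared region of Itgal separated by genotype in rank.

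**Figure D5:**
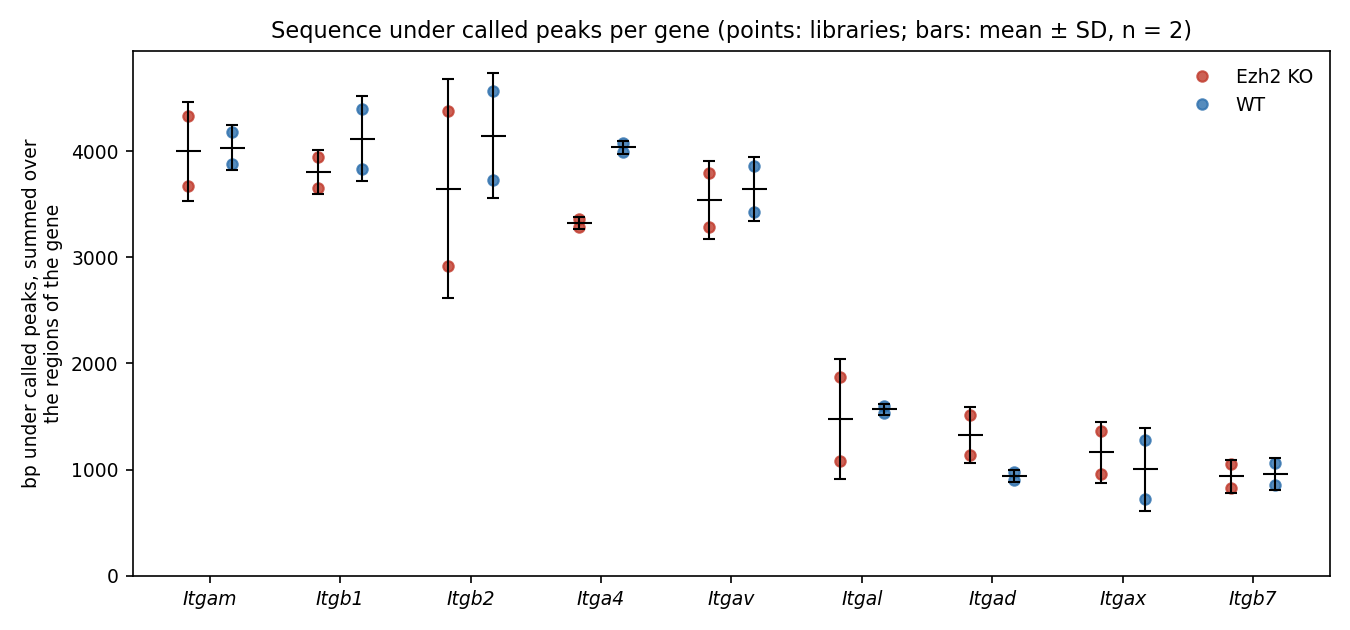
Sequence under called peaks per gene in bp, summed over the regions of the gene, in KO (left) and WT (right); points are libraries and bars are mean ± SD (n = 2). Itgam, Itgb1, Itgb2, Itga4 and Itgav lie between 2917 and 4568 bp and the other genes between 727 and 1876 bp, and the KO and WT points of Itga4 and Itgad do not overlap.

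The genes most like Itgam, with 10 shared regions and the nearest length under peaks among 172 such genes, were Scarb2 (4015 bp), Agpat3 (4013 bp) and Cab39 (4021 bp). Those most like Itgb2, with 6 shared regions among 617 genes, were Mef2d (3897 bp), Lrrfip2 (3891 bp) and Diaph3 (3885 bp).

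The 17 other integrin subunit genes held 165 regions, and 90 of these (54.5%) were shared by all 4 libraries, beside 70.0% for the leukocyte genes and 57.8% for all regions. Among them 1 was KO-only, 11737 bp from Itga5, the fibronectin receptor alpha chain, and 7 were WT-only. These are 0.606% and 4.24% of the 165 regions, against 1.47% KO-only and 2.03% WT-only among all regions, and the difference was not tested. The WT-only regions lay at Itga1 and Itga2 (collagen receptor chains), Itga8 (2 regions), Itgb3, Itgb5 and Itgb8, the last 3 being partners of alpha-V. The 11 ligand genes, such as Icam1, Vcam1, Fn1 and Spp1, held 45 regions with 27 in all 4 libraries and none specific to a genotype. Vtn, which encodes vitronectin, had no region. The 21 genes of integrin activation and signalling, such as Tln1 (talin) and Fermt3 (kindlin-3), held 216 regions with 150 (69.4%) in all 4. They had 2 KO-only regions, at Apbb1ip, which encodes the talin recruiter RIAM, and at the focal adhesion kinase gene Ptk2, and 3 WT-only regions, at the kinase genes Lyn and Ptk2b and at the paxillin gene Pxn, which are 0.926% and 1.39% of the 216. By rank, 13 of the 90 shared regions of other integrin subunits (14.4%) were higher in both KO libraries and 15 (16.7%) lower, and for activation genes 25 of 150 (16.7%) were higher and 25 lower. These shares lie near the 18.7% higher and 16.9% lower among all shared regions. The macrophage marker genes had 19 of 66 shared regions (28.8%) higher in both KO libraries and 7 (10.6%) lower, with a median difference of 4.64 points, beside 1.13 points for the integrin regions. The part of this shift in the integrin ranks was not tested. Among the markers of all cell types, Mertk, Ncr1 and Pax5 each had a KO-only region, while Irf8 had 2 WT-only regions and Flt3, Ebf1 and Col1a1 had 1 each. No region was found at Cd3g, Cd8a, Cd79a, Serpina1a, Col3a1 or Dcn.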

How the data were processed

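ATAC-seq libraries of KO and WT bone marrow-derived macrophages (2 each, paired 150 bp reads) were analysed as deposited broad peak lists. Per the submitters' processing notes, reads were handled with fastp, Bowtie2 and MACS2 on mm10; their versions, the read filters and any filter on the peaks are not stated. Each deposited list belongs to 1 library. By the layout of the deposited files, column 7 is the fold enrichment, a ratio over local background, and column 9 is the −log10 q-value (no list held a q above 0.0497). The fold values are the authors' own.

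Peaks were merged at 1 bp overlap and given to the nearest protein-coding gene of the RefSeq table of GRCm38.p6 by distance to the gene body, within 50 kb. That table has no strand or exons, so start sites came from RefSeq promoters, matched for 6 of 9 genes, and exon or intron status was not assigned. For each region and library the highest fold was taken. Ranks were computed among regions called in all 4 libraries. KO-only means called in both KO libraries and neither WT library. Single gene values were compared by an exact permutation test over libraries, and no test was run over the gene set. All 9 genes are named. Regions given in full are the one at the start, all genotype-specific ones, and separated ones at least 10 points apart. The strongest region of each gene, by its mean percentile over the 4 libraries, is also given. Of the other lists, genes with a genotype-specific region or with no region are named, and the genes most like Itgam and Itgb2 have the same number of shared regions and the nearest covered length. Some further regions were added after their values were seen. Genes and lists were chosen with earlier results of these data known. Whether libraries of equal replicate number share a batch is not stated. The correlation of replicate rank differences between KO and WT was 0.00679. Ranks remove differences that run through a whole library, so this value cannot settle a pairing. The highest fold was 45.5 in KO and 45.4 in WT for replicate 1, against 25.2 and 25.5 for replicate 2. Replicate 1 also had fewer peaks in both genotypes. A shared batch was not tested. Alternatives changed the window, the gene rule, the peak threshold, the overlap, the ranking value and the libraries. Scripts used Python 3.11.15 and pandas 2.3.3 and were tested on simulated data.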

Additional observations from a re-analysis of the deposited data

How the results depend on the processing

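The counts of regions called in all libraries (34 to 53 over all alternatives), and of regions ranked higher or lower in both KO libraries where all 4 libraries were kept (9 to 14 and 4 to 5), stayed within 1.5 times the values reported. The share called in all 4 libraries did not stay above the background. Without the weakest 25% of each list it was 34 of 54 regions, against 64.3% of all merged regions. With a 10 kb window the WT-only count was 1. With the weakest 25% of each list removed there was 1 KO-only region, the one over the Itgam start (211 bp, fold 3.79 and 4.06 in KO, its WT peaks having fallen under the limit), and 1 WT-only region, and the mean rank difference was 3.91 points. Without 1 library, a genotype is represented by a single library and separation is easier to meet: KO-only counts ran from 1 to 4 and WT-only from 3 to 6, beside 3.32% to 8.11% and 4.11% to 10.0% of all regions. Higher ranks ran from 20 to 23 and lower ranks from 10 to 14, beside backgrounds of 33.7% to 35.5% and 32.5% to 33.3%. Regions called in all remaining libraries then ran from 50 to 53. The log2 ratio of covered bp (KO over WT, -0.07) ran from -0.12 without WT replicate 1 to -0.023 without WT replicate 2, and the mean rank difference (2.57 points) from 2.49 to 2.98. With a replicate block the ratio was -0.07 and the rank difference 2.57, and within equal numbers the ratio was -0.02 and -0.13 and the rank difference 1.71 and 3.44 points. The ratios for all peaks without each library were added after the values were seen. No depth is known for these libraries.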
